A study of Homo sapiens with 4 samples.

Results

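The proteasome genes described here are the 49 protein-coding genes, of the 63677 rows in the deposited table, whose symbols start with PSMA to PSMG followed by a digit. They comprise the subunits of the proteasome, its activators and inhibitor, and the chaperones that assemble it. The symbol rule matched 65 rows, and 16 of these repeated 4 of the symbols at no more than 3.25 normalized counts. For each repeated symbol the row with the highest mean was kept. PSMC3IP came in by its symbol alone, because it encodes the meiotic recombination factor HOP2 and is no part of the proteasome, and it is given apart below. PSMA8, an alpha subunit of the testis, had 0 reads in all 4 libraries, and PSMB11, a beta subunit of the thymus, had 1 read in 1 library, so that 47 of the 49 could be tested.

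The study used MDA-MB-231, a long-established line of human triple-negative breast cancer (TNBC) cells with a high level of the receptor tyrosine kinase AXL. Cells received either a control siRNA (siCt, 2 libraries) or a siRNA pool directed at AXL (siAxl, 2 libraries) by lipid transfection, and the study used this contrast to define the genes that respond to AXL knockdown. As labelled, the groups differ in the siRNA only, all 4 libraries come from this 1 line, and the time from transfection to RNA extraction is not given in the sources used here. Nothing says that the 2 libraries of a group came from separate cultures, so p-values measure only the spread between these samples, which may be technical.

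The proteasome is the protease complex that degrades most proteins marked with ubiquitin in the cytosol and nucleus. Its 20S core is a barrel of stacked rings, in which the outer alpha rings form the gate and the inner beta rings carry the proteolytic sites. The 19S regulatory particle caps the barrel, recognises ubiquitin chains, removes them, and unfolds the substrate with a ring of ATPases. Transcription of proteasome genes is coordinated in human cells by NFE2L1, a factor bound to the endoplasmic reticulum and itself degraded by the proteasome, which is activated when proteolysis falls behind. Inhibitors of its proteolytic sites are used as anticancer drugs.

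Values are normalized counts, that is, reads per gene after division by a factor for the depth of each library. The libraries held 39574387 to 44585773 reads. AXL had 29189 and 30617 normalized counts in siCt 1 and siCt 2 and 8658 and 7141 in siAxl 1 and siAxl 2, which is 26.4% of the siCt mean (limma, adjusted p = 0.000585). Of the markers of the cell line, VIM (86751 to 99296 normalized counts) and CD44 (33968 to 36518) were high, ESR1 (at most 3.25) and PGR (at most 1.94) were near 0, and EPCAM (565 to 771) was low. ERBB2, also taken as a marker that would be low or at background, was above background. It had 3089 and 2949 normalized counts in siCt 1 and siCt 2 and 3680 and 3536 in siAxl 1 and siAxl 2. It was thus higher in siAxl (log2 fold change 0.26, limma adjusted p = 0.0258). The leukocyte marker PTPRC had 7.77 to 16.7 normalized counts, and the endothelial marker PECAM1 had 0.

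Promoters are shown for 3 proteasome genes that passed the test in opposite directions, namely the assembly chaperone PSMG1 and the lid subunit PSMD12, which were lower in siAxl, and the lid deubiquitinase PSMD14, the only one of the 49 that passed the test in the other direction. Each sequence runs from 250 bases before to 50 bases after the transcription start in RefSeq (build GRCh38.p14) and reads 5′ to 3′ on the strand of the gene. The windows are chr21:39183402-39183701 on the minus strand for PSMG1, chr17:67366528-67366827 on the minus strand for PSMD12, and chr2:161308175-161308474 on the plus strand for PSMD14. Capitals mark matches, on either strand, to TGACNNNGC, the core of the antioxidant response element to which NFE2L1 and NFE2L2 bind with small MAF proteins, and to CCAAT, the box bound by NF-Y.
PSMG1: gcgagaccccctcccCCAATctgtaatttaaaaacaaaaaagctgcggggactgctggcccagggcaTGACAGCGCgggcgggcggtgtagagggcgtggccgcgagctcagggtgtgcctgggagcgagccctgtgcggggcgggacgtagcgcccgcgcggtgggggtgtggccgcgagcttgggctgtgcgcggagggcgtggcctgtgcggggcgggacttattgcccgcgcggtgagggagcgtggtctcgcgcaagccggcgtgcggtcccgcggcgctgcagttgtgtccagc
PSMD12: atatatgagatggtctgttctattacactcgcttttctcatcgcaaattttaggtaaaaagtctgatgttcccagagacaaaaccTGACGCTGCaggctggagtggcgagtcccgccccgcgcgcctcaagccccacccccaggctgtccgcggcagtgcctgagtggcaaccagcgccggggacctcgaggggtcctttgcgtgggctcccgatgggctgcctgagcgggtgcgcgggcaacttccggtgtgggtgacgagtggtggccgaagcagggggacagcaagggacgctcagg
PSMD14: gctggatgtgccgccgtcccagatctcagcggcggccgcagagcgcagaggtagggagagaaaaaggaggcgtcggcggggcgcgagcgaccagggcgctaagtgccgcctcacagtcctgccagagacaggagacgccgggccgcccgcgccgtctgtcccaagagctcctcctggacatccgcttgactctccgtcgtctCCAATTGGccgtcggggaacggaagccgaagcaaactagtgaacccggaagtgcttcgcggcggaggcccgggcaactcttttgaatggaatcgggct
PSMG1 had TGACNNNGC on the plus strand of the gene from position -183 and CCAAT from position -235, counted from the start. PSMD12 had TGACNNNGC from position -165 and no CCAAT. PSMD14 had no TGACNNNGC and had CCAAT on both strands, from positions -48 and -45, in matches that overlap each other. The windows shown do not stand for the other lower genes. Of the 7 proteasome genes lower in siAxl that had a window, 2 (PSMG1 and PSMD12) held TGACNNNGC and 5 (PSMB2, PSMB5, PSMC3, PSMC6 and PSMD6) did not.

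Without PSMC3IP, 42 of the 48 proteasome genes had a RefSeq window, and 51 windows were searched, since some genes had several. TGACNNNGC occurred in 15 of the 51 windows (29.4%), against 13.3% of all 35116 windows in the table. Per gene it occurred in 15 of 42 (35.7%), against 16.1% of all 27305 genes. CCAAT occurred in 20 of the 51 windows (39.2%), against 34.6% of all. A match is a description of the letters and not a binding site, and a window without one says nothing of the factor. PSMA7, PSMB1, PSMB6, PSMB7, PSMD4 and PSMG3 were not in the table of windows.

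The study made this contrast to obtain a signature of AXL knockdown with which to search for drugs of similar effect. For the proteasome genes the difference was small and had the same sign in most genes. Of the 47 genes tested, 40 had a log2 fold change below 0 in siAxl over siCt, against 50.3% of all 16064 genes tested. The median log2 fold change was -0.15, against -0.002 over all genes. The normalized counts of the 49 genes summed to 265090 and 274998 in siCt 1 and siCt 2 and to 247033 and 258565 in siAxl 1 and siAxl 2, so that the siAxl mean was 93.6% of the siCt mean. Both siAxl sums were below both siCt sums. In bulk RNA, a small difference in all cells and a larger one in some of them cannot be told apart. Normalized counts are relative to the other genes of a library, so the amount of RNA per cell was not measured.

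By the limma test over all genes, 9 of the 47 genes (19.1%) were lower in siAxl at an adjusted p under 0.05, against 7.91% of all genes tested, and 1 was higher, against 10.8% of all genes. The lower genes were the beta subunits PSMB2 and PSMB5, the ATPases PSMC3 and PSMC6, the ubiquitin receptor PSMD4, the lid subunits PSMD6 and PSMD12, the chaperone PSMG1, and PSMC3IP. The higher gene was PSMD14. For 29 of the 47 genes (61.7%) the higher siAxl value was still under the lower siCt value, against 30.5% of all genes. For 2 genes siAxl lay entirely above siCt, against 30.6% of all, and the groups overlapped for 16. Leaving out PSMC3IP, 8 of 46 genes were lower, with a median log2 fold change of -0.15. edgeR's quasi-likelihood test on the recovered reads gave the same 9 lower genes (against 7.92% of all genes) and PSMD14 as higher. DESeq2 gave 8 lower (against 8.57%) and PSMD14 as higher, since PSMD6 had an adjusted p of 0.0515 there.

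The count of genes past the threshold rests on single libraries. Without siAxl 1 it was 1 (PSMC3IP) of 47 genes lower, against 2.57% of all genes. Without siAxl 2 it was 4 (PSMB2, PSMC3, PSMC3IP and PSMG1, against 4.02%), without siCt 2 it was 3 (PSMC3IP, PSMC6 and PSMG1, against 5.82%), and without siCt 1 it was 12 (against 10.8%). Among these 4 fits PSMD14 passed the threshold in the higher direction without siCt 1 only (against 13.4% of all genes). The number of genes with a log2 fold change below 0 was steadier, at 36 without siAxl 1, 43 without siAxl 2, 40 without siCt 1 and 36 without siCt 2.

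**Figure D1:**
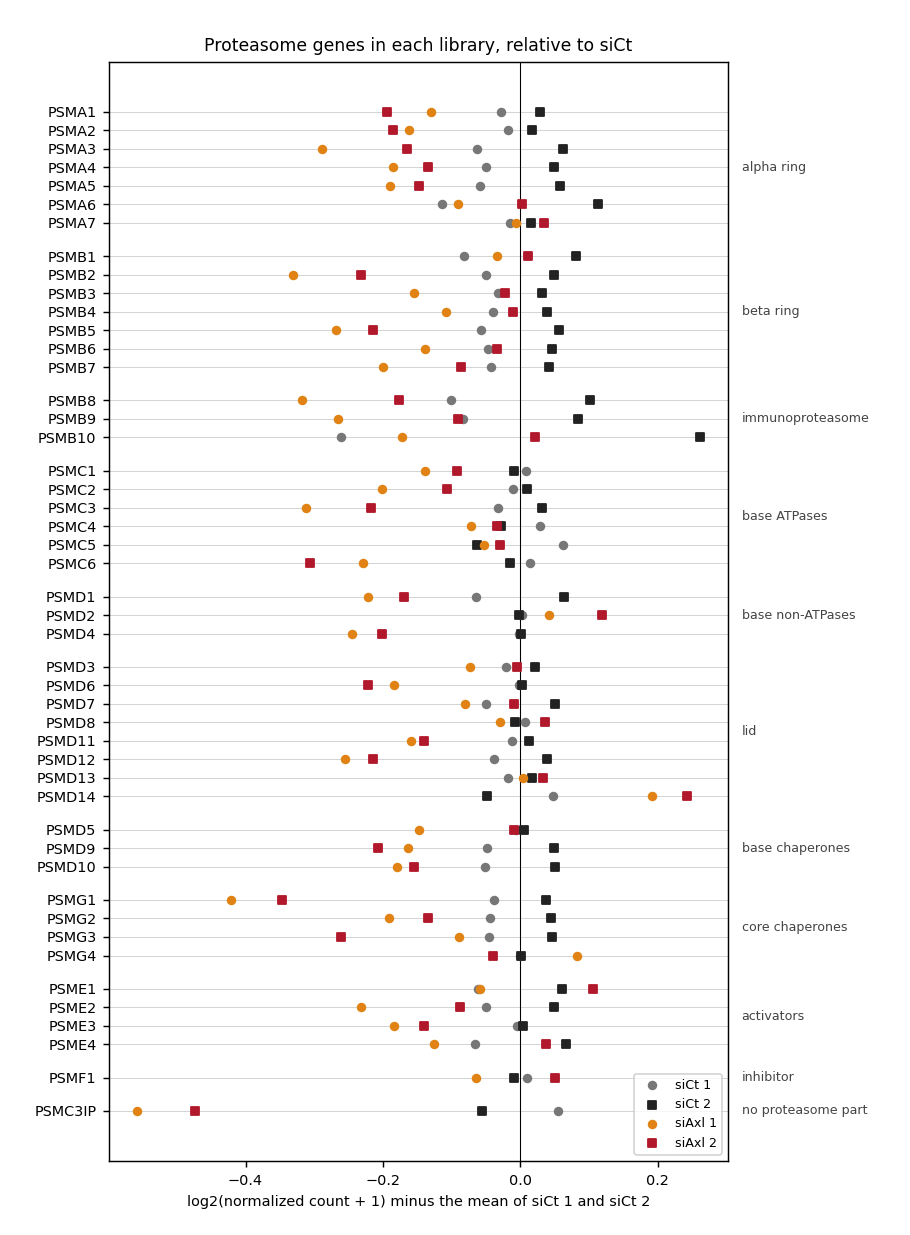
Each row is a proteasome gene, grouped by subcomplex, and the x axis gives log2(normalized count + 1) in each of the 4 libraries minus the mean of siCt 1 and siCt 2. Most orange and red siAxl points lie left of the grey and black siCt points, with siAxl 1 farther left than siAxl 2 in the median, and PSMD14 and PSMD2 lie to the right.

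The plot of the values by library shows that the libraries of a group did not sit at one level. Over the 47 genes the median difference from the siCt mean was -0.04 in siCt 1 and 0.04 in siCt 2, and it was -0.16 in siAxl 1 and -0.09 in siAxl 2 on the log2 scale. Over all genes tested the same medians lay between -0.006 and 0.006. The gap between the 2 siCt libraries was thus wider than that from siCt 1 to siAxl 2.

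The alpha ring is built of PSMA1 to PSMA7, which form the gate of the core. None of the 7 passed the test in limma, edgeR or DESeq2 (4 had an unadjusted limma p under 0.05). For 5 of 7 the higher siAxl value was under the lower siCt value, against 30.5% of all genes tested. The median log2 fold change was -0.16. PSMA3 had the lowest, with 5914 and 6454 normalized counts in siCt 1 and siCt 2 and 5056 and 5509 in siAxl 1 and siAxl 2 (log2 fold change -0.23, SE 0.0695, limma adjusted p = 0.0626). PSMA1, PSMA2, PSMA4 and PSMA5 lay between -0.17 and -0.16, with adjusted p-values from 0.0897 to 0.175. The siAxl libraries were separate from the siCt libraries in all 5 of these genes. PSMA7, with 9389 and 9588 against 9447 and 9718 normalized counts, had a log2 fold change of 0.01 (adjusted p = 0.88). PSMA6 overlapped between the groups, at -0.04.

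The beta ring holds the active sites, of which PSMB5 cuts after hydrophobic residues (and is the main target of bortezomib), PSMB6 after acidic ones and PSMB7 after basic ones. PSMB5 had 6296 and 6814 normalized counts in siCt 1 and siCt 2 and 5437 and 5644 in siAxl 1 and siAxl 2. It fell to 84.5% of the siCt mean (log2 fold change -0.24, SE 0.0612, limma adjusted p = 0.0356). The other two active subunits were not past the threshold. PSMB6 had 4689 and 4999 against 4399 and 4728 normalized counts (log2 fold change -0.09, adjusted p = 0.392), with overlapping groups. PSMB7 had 7106 and 7533 against 6373 and 6894 (log2 fold change -0.14, adjusted p = 0.164), with both siAxl libraries lower. Whether PSMB5 differed from PSMB6 or PSMB7 in its response was not tested.

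Of the beta subunits without an active site, PSMB2 had the lowest log2 fold change. It had 7921 and 8488 normalized counts in siCt 1 and siCt 2 and 6516 and 6982 in siAxl 1 and siAxl 2, and fell to 82.3% of the siCt mean (log2 fold change -0.28, SE 0.0632, adjusted p = 0.0249). PSMB1, also without an active site, had 9356 and 10479 against 9676 and 9978 normalized counts (log2 fold change -0.01, adjusted p = 0.927). PSMB3 and PSMB4 lay at -0.09 and -0.06 and overlapped between the groups. Over the 7 beta genes the median was -0.09. The test was passed by 2 of 7 in the lower direction, against 7.91% of all genes tested. For 3 of 7 (42.9%) the higher siAxl value was under the lower siCt value, against 30.5% of all genes. Across the 14 genes of the standard core, 13 were below 0, against 50.3% of all genes, and the median was -0.15.

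PSMB8, PSMB9 and PSMB10 replace PSMB5, PSMB6 and PSMB7 in the immunoproteasome, a form induced by interferon gamma that favours peptides fit for MHC class I. None of the 3 passed the test in limma, edgeR or DESeq2, and 1 had an unadjusted limma p under 0.05. PSMB8 had 3280 and 3773 normalized counts in siCt 1 and siCt 2 and 2822 and 3112 in siAxl 1 and siAxl 2 (log2 fold change -0.25, SE 0.0846, limma adjusted p = 0.0848). PSMB9 had 1054 and 1184 against 930 and 1049 (log2 fold change -0.18, adjusted p = 0.227). In both genes the siAxl libraries lay below the siCt libraries, in PSMB9 only narrowly. PSMB10 had 506 and 728 against 539 and 616 (log2 fold change -0.08, adjusted p = 0.798), and its 2 siCt libraries enclosed both siAxl libraries. Its 95% interval, -0.47 to 0.32, is the widest of the 3.

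Expressed per length, PSMB8 had 48.7 RPKM (reads per gene scaled to exon length and library total, mean of the 4 libraries) against 95.9 for PSMB5, PSMB9 had 26.6 against 125 for PSMB6, and PSMB10 had 11.4 against 165 for PSMB7. By this measure the standard subunit had the higher level of each pair. Ratios within a library do not depend on how the libraries are scaled. The ratio of normalized counts of PSMB8 to PSMB5 was 0.521 and 0.554 in siCt and 0.519 and 0.551 in siAxl, with overlapping groups. PSMB9 to PSMB6 was 0.225 and 0.237 in siCt and 0.211 and 0.222 in siAxl, which do not overlap, and PSMB10 to PSMB7 overlapped.

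The base of the 19S particle holds the ATPases PSMC1 to PSMC6, which pull the substrate into the core. All 6 had a log2 fold change below 0, against 50.3% of all genes tested, and the median was -0.13. The test was passed by 2 of 6 in the lower direction, against 7.91% of all genes. For 5 of 6, siAxl lay below siCt in both libraries, against 30.5% of all genes. PSMC6 had 5300 and 5192 normalized counts in siCt 1 and siCt 2 and 4476 and 4242 in siAxl 1 and siAxl 2, and fell to 83.1% of the siCt mean (log2 fold change -0.27, SE 0.0564, limma adjusted p = 0.0208). PSMC3 had 7462 and 7802 against 6147 and 6561 (83.2% of siCt, log2 fold change -0.26, adjusted p = 0.0247). The 2 genes had siAxl values well outside their siCt values. At the other end of the ring, PSMC5 had 6346 and 5818 against 5857 and 5955 (log2 fold change -0.04, adjusted p = 0.688), and the groups overlapped. PSMC1, PSMC2 and PSMC4 had log2 fold changes from -0.15 to -0.05.

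PSMD1, PSMD2 and PSMD4 complete the base. PSMD4, a receptor for ubiquitin chains, had 5092 and 5102 normalized counts in siCt 1 and siCt 2 and 4299 and 4433 in siAxl 1 and siAxl 2, and fell to 85.7% of the siCt mean (log2 fold change -0.22, SE 0.0532, limma adjusted p = 0.0297). The scaffold PSMD1, which holds the receptor ADRM1, had a log2 fold change of -0.20 (adjusted p = 0.072) with both siAxl libraries lower. PSMD2 is the other large scaffold and a docking site for shuttle proteins. It had 28853 and 28777 normalized counts in siCt and 29673 and 31306 in siAxl (log2 fold change 0.08, SE 0.0578, adjusted p = 0.375), with siAxl above siCt. The ratio of PSMD2 to PSMD1 was 3.54 and 3.23 in siCt and 4.07 and 4.13 in siAxl.

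The lid removes ubiquitin chains before the substrate is translocated. Its catalytic subunit PSMD14 is a metalloprotease, and it had 4790 and 4479 normalized counts in siCt 1 and siCt 2 and 5290 and 5482 in siAxl 1 and siAxl 2. It rose to 116% of the siCt mean (log2 fold change 0.22, SE 0.0593, limma adjusted p = 0.0446), while scaling by library totals gave 0.19 with an adjusted p of 0.0623. Its siAxl values lay above its siCt values. The lid scaffold subunits PSMD12 and PSMD6 went the other way. PSMD12 had 8107 and 8552 against 6977 and 7177 normalized counts and fell to 85.0% of the siCt mean (log2 fold change -0.23, SE 0.0559, adjusted p = 0.0298). PSMD6 had 5172 and 5189 against 4560 and 4441 and fell to 86.9% (log2 fold change -0.20, SE 0.0528, adjusted p = 0.0386).

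The remaining lid genes were closer to 0. PSMD11 had a log2 fold change of -0.15 (adjusted p = 0.0876) with both siAxl libraries lower, and PSMD3, PSMD7, PSMD8 and PSMD13 lay between -0.04 and 0.02 with overlapping groups. The median of the 8 lid genes was -0.04, against -0.13 for the ATPases and -0.16 for the alpha ring, and no test was made between these groups of genes, which are not replicates. The ratio of PSMD14 to PSMD12 was 0.591 and 0.524 in siCt and 0.758 and 0.764 in siAxl, and that of PSMD14 to PSMD6 was 0.926 and 0.863 against 1.16 and 1.23. These pairs of lid genes were chosen after their values were seen, so the ratios describe the difference and do not test it.

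**Figure D2:**
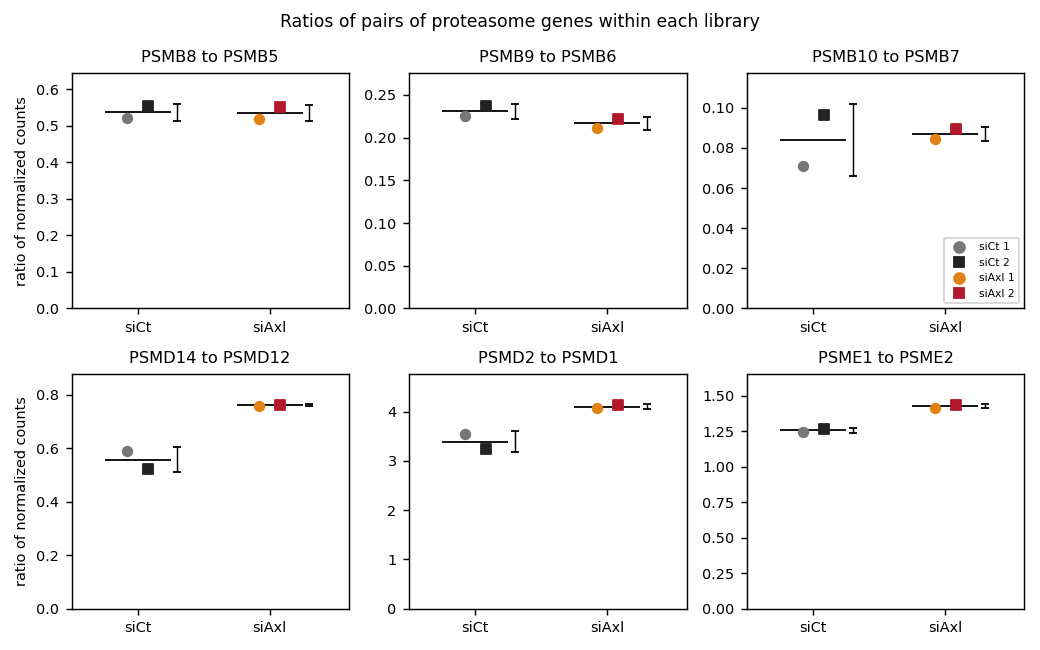
Ratios of normalized counts of 2 proteasome genes within each library are shown as points on axes that start at 0, with bars at the mean of each group and error bars of 1 SD (n = 2). The ratios of immunoproteasome to standard subunits in the upper row differ little between the groups, although PSMB9 to PSMB6 is lower in both siAxl libraries. In the lower row, PSMD14 to PSMD12, PSMD2 to PSMD1 and PSME1 to PSME2 are higher in both siAxl libraries. The pairs of the lower row were chosen after their values were seen.

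Assembly of the core is guided by PSMG1 to PSMG4, of which PSMG1 and PSMG2 form a heterodimer that holds the alpha ring, and PSMG3 and PSMG4 form another. PSMG1 had the lowest log2 fold change of all genes with a known proteasome role. It had 1573 and 1657 normalized counts in siCt 1 and siCt 2 and 1206 and 1269 in siAxl 1 and siAxl 2, and fell to 76.6% of the siCt mean (log2 fold change -0.38, SE 0.0677, limma adjusted p = 0.0117). Its partner PSMG2 had a log2 fold change of -0.16 (adjusted p = 0.113), and PSMG3 had -0.18 (adjusted p = 0.19), each with both siAxl libraries lower. PSMG4 had 1070 and 1071 against 1134 and 1042 normalized counts (log2 fold change 0.02, adjusted p = 0.864). The ratio of PSMG1 to PSMG4 was 1.47 and 1.55 in siCt and 1.06 and 1.22 in siAxl.

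The base chaperones PSMD5, PSMD9 and PSMD10 bind the ATPases during assembly and leave before the particle is complete. All 3 had lower values in both siAxl libraries than in siCt, against 30.5% of all genes tested. None passed the test in limma, edgeR or DESeq2 (2 had an unadjusted limma p under 0.05). PSMD9 had 1444 and 1545 normalized counts in siCt 1 and siCt 2 and 1333 and 1294 in siAxl 1 and siAxl 2 (log2 fold change -0.19, SE 0.068, limma adjusted p = 0.102). PSMD10, also known as gankyrin, had -0.17 (adjusted p = 0.104). PSMD5 had 4630 and 4667 against 4198 and 4619 (log2 fold change -0.08, adjusted p = 0.44), with siAxl 2 close to siCt 1.

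Activators other than the 19S particle open the gate without ATP. PSME1 and PSME2 form one such activator in the cytosol and are induced by interferon gamma, PSME3 forms another in the nucleus, and PSME4 is a single large chain. None of the 4 passed the test in limma, edgeR or DESeq2, and 1 had an unadjusted limma p under 0.05. PSME3 had 9993 and 10059 normalized counts in siCt 1 and siCt 2 and 8831 and 9102 in siAxl 1 and siAxl 2 (log2 fold change -0.16, SE 0.0522, limma adjusted p = 0.0737), with groups that did not overlap. PSME1 had 6026 and 6563 against 6038 and 6765 (log2 fold change 0.02, adjusted p = 0.86), whereas its partner PSME2 had a log2 fold change of -0.16 (adjusted p = 0.155). Their ratio was 1.25 and 1.27 in siCt and 1.42 and 1.44 in siAxl. PSME4 lay at -0.04. The inhibitor PSMF1, known as PI31, had 4414 and 4355 against 4195 and 4540 normalized counts (log2 fold change -0.01, adjusted p = 0.952), with siAxl values on both sides of siCt.

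PSMC3IP had 1248 and 1156 normalized counts in siCt 1 and siCt 2 and 816 and 865 in siAxl 1 and siAxl 2, and fell to 69.9% of the siCt mean (log2 fold change -0.52, SE 0.0765, limma adjusted p = 0.00678). Its log2 fold change was the lowest of the 47, although its product works in homologous recombination and is named for its binding to PSMC3. In GENCODE release 29, 29.9% of its exon bases lie opposite MLX, which had a mean of 4024 normalized counts.

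**Figure D3:**
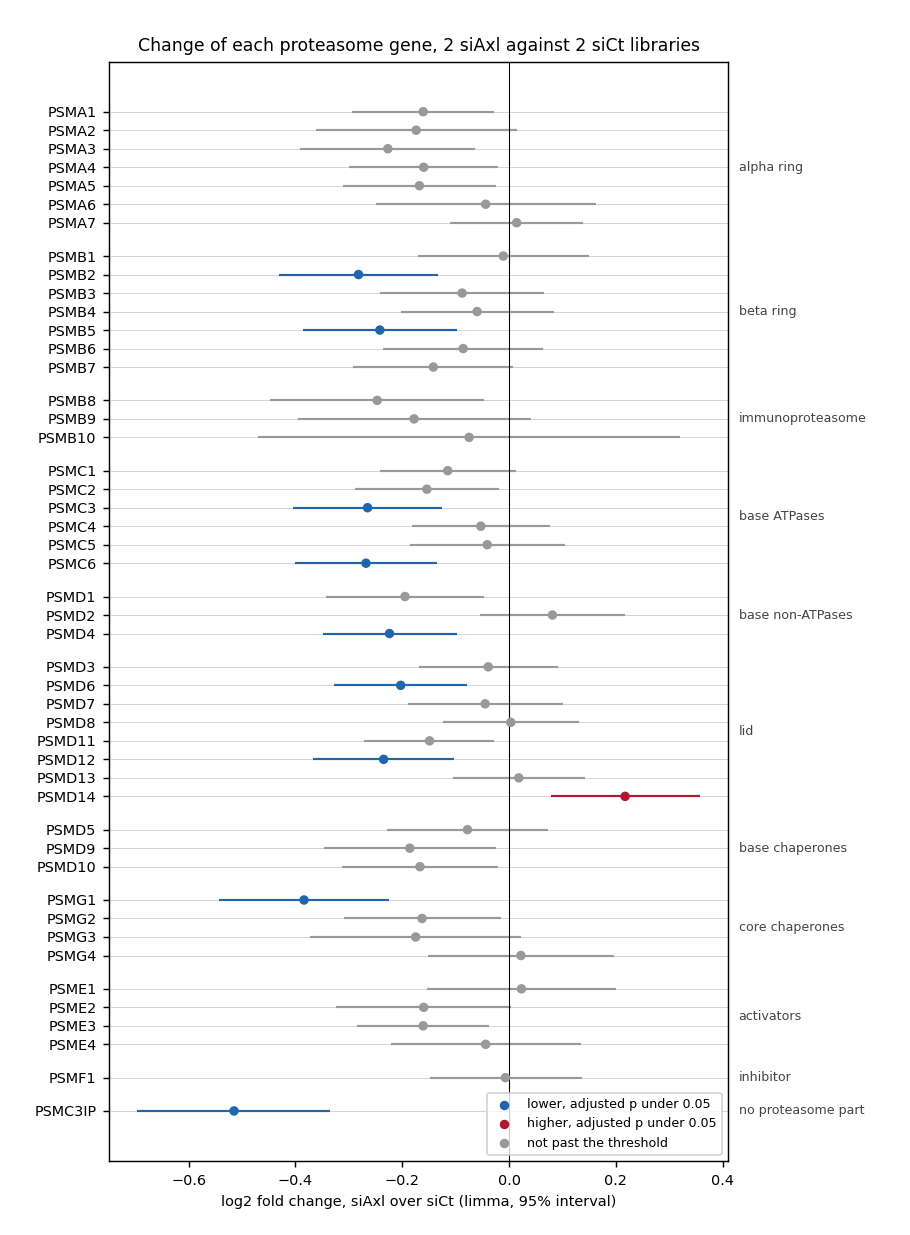
Points give the log2 fold change of each of the 47 tested genes, siAxl over siCt, and lines its 95% interval from limma. The 9 genes in blue passed an adjusted p under 0.05 in the lower direction, PSMD14 in red passed in the higher one, and most grey intervals lie mainly left of 0 with the widest at PSMB10.

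The plot of log2 fold changes shows how small the differences were. Apart from PSMC3IP and PSMG1, the genes tested lay between -0.28 and 0.22. Within the subcomplexes, genes whose products stand in equal number in the particle were spread, since the alpha ring ran from -0.23 to 0.01 and the beta ring from -0.28 to -0.01. RPKM also differed within a ring, from 9.06 for PSMA2 to 141 for PSMA7 and from 35.9 for PSMB2 to 247 for PSMB1. RPKM depends on the annotated exon length, which was 4843 bases for PSMB2 and 928 for PSMB1, and on overlaps. PSMA2 shares 34.6% of its exon bases with other genes. How much of the range lies in RNA level was not tested. The highest after PSMB1 were PSMB4 (198) and PSMD2 (193.5), and the lowest of the tested genes was PSMG4 (4.3). A length was found for 48 of the 49 genes, without PSMB3.

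Where exons of genes overlap, a count can be altered by the way such reads were handled. For genes on opposite strands this depends on the strand setting of the counting, which is not stated. Of the 46 tested genes with a length, 24 share exon bases with another annotated gene. Of the 10 genes that passed the test, 7 share none, namely PSMB2, PSMB5, PSMC3, PSMC6, PSMD4, PSMD12 and PSMG1. PSMD6 shares 7.83% and PSMD14 2.07% of exon bases. Of the others, PSMC1 shares 75.8% with NRDE2 (mean 1101 normalized counts) on the opposite strand and has a pseudogene, PSMC1P1, with 429 to 528 normalized counts, so its value is uncertain. PSMB8 shares 20.6% with PSMB8-AS1 (mean 274), and PSMB10 shares 34.8% with a gene on the same strand.

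Beyond the PSM symbols, 45 further genes of the pathway were described in 6 groups, of which 44 were tested and DDI1 was at 0. They had 4 lower and 5 higher genes past the threshold, or 9 of 44 against 18.7% of all genes in either direction, and a median log2 fold change of -0.06. A group of 8 held genes without PSM symbols for proteasome subunits and for proteins that bind or assemble it. Of these, 7 were below 0, against 50.3% of all genes, with a median of -0.10. In limma 0 of 8 passed the threshold (3 had an unadjusted p under 0.05), in edgeR 1 (UCHL5) and in DESeq2 0. POMP, the chaperone that completes the core, had 4226 and 4536 normalized counts in siCt 1 and siCt 2 and 4052 and 4349 in siAxl 1 and siAxl 2 (log2 fold change -0.06, adjusted p = 0.565). UCHL5, a deubiquitinase on the 19S base, had a log2 fold change of -0.22 (adjusted p = 0.0511).

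NFE2L1, the factor that drives proteasome genes, was higher in siAxl. It had 15811 and 15949 normalized counts in siCt 1 and siCt 2 and 20002 and 21095 in siAxl 1 and siAxl 2, and rose to 129% of the siCt mean (log2 fold change 0.37, SE 0.0559, limma adjusted p = 0.00699). The groups were far apart. MAFG, a small MAF partner, fell (6076 and 6335 against 5113 and 5195 normalized counts, log2 fold change -0.27, adjusted p = 0.018), and MAFF and MAFK lay at -0.06 each with overlapping groups. DDI2 and NGLY1, which cleave and deglycosylate NFE2L1 as it is activated, had -0.21 (adjusted p = 0.293) and -0.09 (adjusted p = 0.349). The amount of NFE2L1 protein and its processing were not measured here.

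Of the genes that deliver substrates, NPLOC4, an adaptor of the segregase VCP, rose most. It had 7046 and 6307 normalized counts in siCt 1 and siCt 2 and 9805 and 9985 in siAxl 1 and siAxl 2 (log2 fold change 0.57, SE 0.0666, limma adjusted p = 0.00335), whereas VCP itself lay at -0.06 and UFD1, its partner in the adaptor, at -0.01. UBE3C, a ligase that extends chains on substrates held at the proteasome, fell from 14659 and 15870 to 12504 and 13189 (log2 fold change -0.25, adjusted p = 0.036). None of the 6 genes for ubiquitin and its activating enzymes passed the test in limma or DESeq2, 1 (UBB) did in edgeR, and 2 had an unadjusted limma p under 0.05.

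Peptides made by the proteasome are loaded on MHC class I, and 10 genes of that step and its regulators were described. The loading factor TAPBP (18145 and 17895 against 21705 and 22237 normalized counts, log2 fold change 0.29, adjusted p = 0.014) and the peptide trimmer ERAP1 (4140 and 4667 against 5243 and 5925, log2 fold change 0.34, adjusted p = 0.0319) rose. So did the heavy chain HLA-C (16315 and 17144 against 19105 and 20278, log2 fold change 0.23, adjusted p = 0.0362), whose reads can be divided among near-identical genes. IRF1 and NLRC5, regulators known to induce class I genes, went the other way. IRF1 fell from 3054 and 3191 to 2583 and 2506 (log2 fold change -0.30, adjusted p = 0.0169), and NLRC5 fell from 2064 and 2299 to 1731 and 1729 (log2 fold change -0.33, adjusted p = 0.0219). Over the 10 genes, 2 were lower, against 7.91% of all genes, and 3 higher, against 10.8%, with a median of 0.09. edgeR called 6 of the 10, with HLA-B (log2 fold change 0.25, limma adjusted p = 0.055) in addition. Of all genes edgeR called 7.92% lower and 11.5% higher. DESeq2 called 7 of the 10, with HLA-B and TAP2 (log2 fold change -0.25, limma adjusted p = 0.055) in addition. Of all genes DESeq2 called 8.57% lower and 11.5% higher. Over all 6 groups the count past the threshold was 3 of 44 without siAxl 1 (against 8.1% of all genes in either direction), 3 without siAxl 2 (against 9.45%), 15 without siCt 1 (against 24.3%) and 7 without siCt 2 (against 15.4%).

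**Figure D4:**
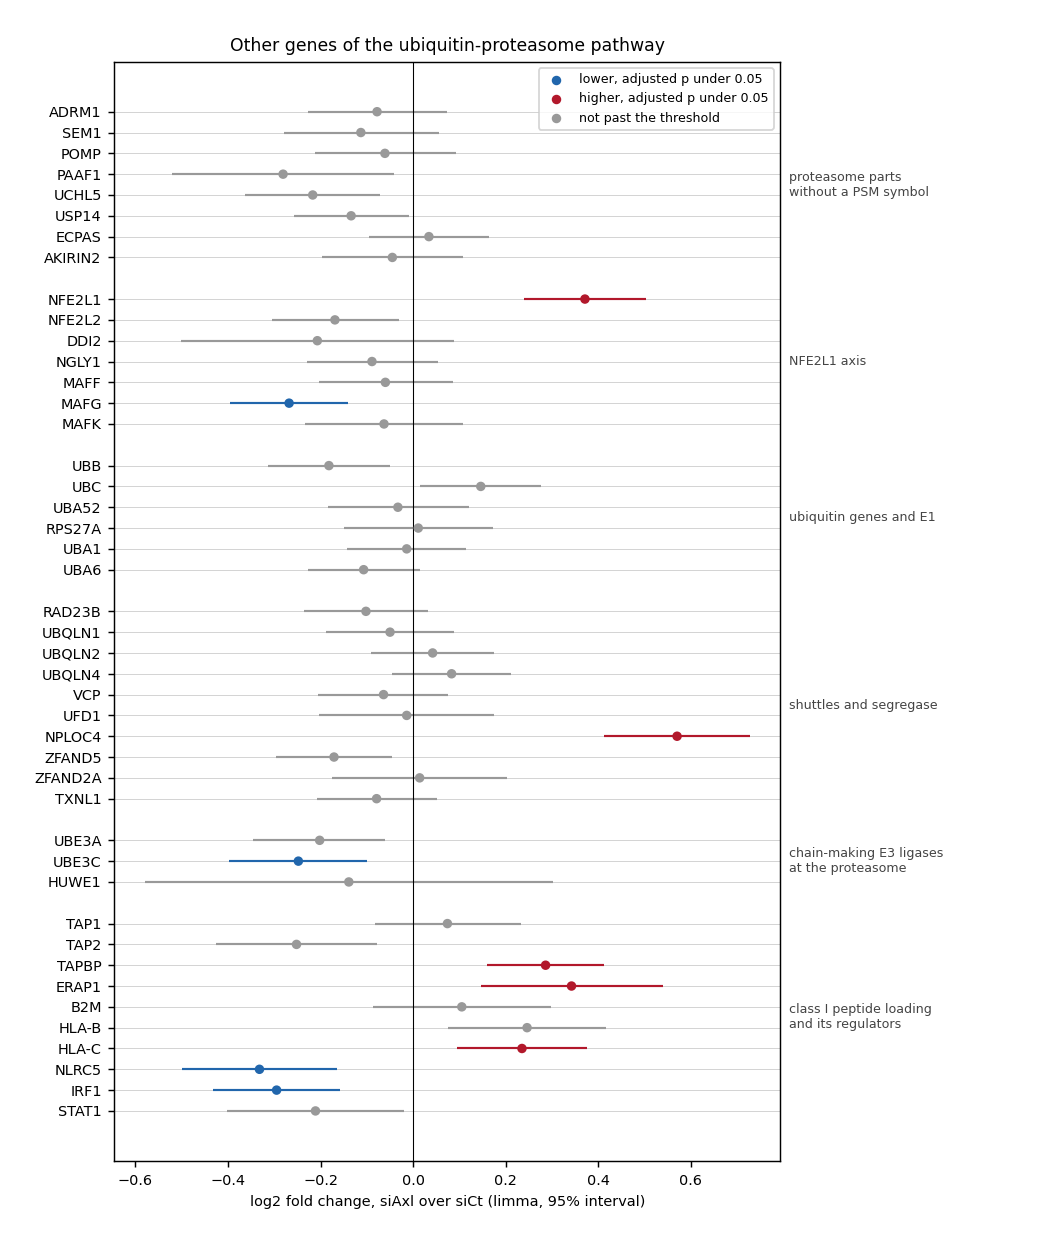
Points give the log2 fold change of the 44 tested genes of the 6 further lists, siAxl over siCt, with 95% intervals from limma. The 4 genes in blue (MAFG, UBE3C, NLRC5 and IRF1) passed in the lower direction and the 5 in red (NFE2L1, NPLOC4, TAPBP, ERAP1 and HLA-C) in the higher one.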

How the data were processed

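The data are 4 RNA sequencing libraries of MDA-MB-231 cells, 2 siCt and 2 siAxl, grouped by their labels. Per the submitters' processing notes, CASAVA 1.8, TopHat2 2.0.10, HTSeq 0.5.3, DESeq2 1.4.5 and the build GRCh37 were used. The strand setting and the annotation are not given in the sources used here. The authors deposited 1 table of normalized counts, a signal in which reads per gene were divided by a size factor per library from DESeq2, next to columns of their own fold changes, standard errors, test statistics and p-values, which were not used. In each library 100% of values were whole multiples (within 0.01 reads) of what 1 read is worth, so the reads were recovered by division. They summed to 44281982, 39574387, 44585773 and 44559547 in siCt 1, siCt 2, siAxl 1 and siAxl 2, and a count of 0 allows up to 3 reads, for counting error only. Per-sample columns not used numbered 0.

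The main test was limma (3.58.1, lmFit and eBayes with a trend, R 4.3.3) on log2(normalized count + 1), with no covariate, over the 16064 genes that passed filterByExpr of edgeR on the recovered reads. Fold changes are on this log2 scale and understate those of low genes. The call threshold was an adjusted p of 0.05, by Benjamini-Hochberg over all genes tested. A permutation test of 2 against 2 libraries cannot go below p = 0.333 (two-sided), so none was used. edgeR's quasi-likelihood test (4.0.16), which called 3122 genes against 3006 in limma, DESeq2 (1.42.0), 2 pseudocounts (0.5 and 8), no filter, 2 scalings, a replicate block, a threshold of 0.01 and each library left out were the alternatives. Scripts were tested on simulated data. Libraries of a group differed by more than sampling noise (chi-square per gene 21.6 for siCt, 19.6 for siAxl).

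The proteasome genes and the further lists were chosen with earlier results of these data known, and some genes of the further lists are not reported here. Named with values per library were AXL, PSMB5 to PSMB10, every gene past the threshold, and the lowest and highest of each subcomplex, as well as NFE2L1, POMP and the further genes past the threshold. Other genes named, and the pairs of genes for the ratios other than immunoproteasome to standard subunits, were chosen after the values were seen. Exon lengths and overlaps come from GENCODE release 29, and promoter windows from RefSeq (GRCh38.p14), matched by symbol.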

Additional observations from a re-analysis of the deposited data

How the results depend on the processing

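With 2 libraries per group, the count of genes past the threshold depended on the setting, while their median log2 fold change was below 0 under every alternative run. Past the threshold, 9 genes of the symbol rule were lower and 1 higher, and 9 further pathway genes passed. PSMC3IP, which is no part of the proteasome, is in every count of lower genes given here. At an adjusted p under 0.01 the counts were 1 (PSMC3IP alone), 0 and 2, with 1.53% of all genes lower and 3.82% higher. Without a filter on low counts they were 2 (PSMC3IP and PSMG1), 0 and 3, with 1.25% of 27108 genes lower and 2.79% higher. With scaling by library totals they were 16, 0 and 15, with 10.8% of all genes lower and 9.54% higher. That scaling moved the median of all genes to -0.03 and that of the 3 other base genes to -0.23, and gave PSMA7 -0.015, PSME1 -0.006 and PSMG4 -0.007. PSMF1 was 0.002 with TMM scaling and 0.003 in edgeR.

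With the replicate number as a block the counts were 27, 2 and 26, against 22.2% of all genes lower, 23.3% higher and 45.5% in either direction. Deviations of same-numbered libraries correlated at 0.271 across genes. With 2 libraries per group this value cannot tell a pairing from other variation shared by libraries, and a pairing was not tested. The labels do not say that the numbers pair the libraries and there are only 2 of each, so the fit without the block was kept as the main one.

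Leaving out 1 library at a time (a lone library is then assumed to vary like the other group) gave 1 to 12 genes lower, 0 to 1 higher, 3 to 15 further genes, and 36 to 43 genes below 0. The median over the genes ranged from -0.184 to -0.092. By subcomplex it ranged from -0.19 to -0.11 (alpha ring), -0.15 to -0.03 (beta ring), -0.34 to -0.09 (immunoproteasome), -0.17 to -0.10 (ATPases), -0.23 to -0.13 (other base genes), -0.08 to -0.01 (lid), -0.22 to -0.12 (base chaperones), -0.21 to -0.12 (core chaperones) and -0.15 to -0.03 (activators). Of the 47 genes, 11 changed sign, namely PSMA6 (-0.158 to 0.069), PSMD7 (-0.095 to 0.006), PSMD8 (-0.03 to 0.036), PSME4 (-0.125 to 0.038), PSMA7 (-0.006 to 0.035), PSMB1 (-0.093 to 0.071), PSMB10 (-0.337 to 0.186), PSMC5 (-0.104 to 0.022), PSME1 (-0.059 to 0.105), PSMF1 (-0.064 to 0.05) and PSMG4 (-0.039 to 0.084). The causes were not tested.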
